A study of Mus musculus with 2 samples.

Results

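The genes described here are H2-Aa and H2-Ab1, which encode the α and β chains of the MHC-II molecule I-A, H2-Eb1, which encodes the β chain of I-E, Cd74, which encodes the invariant chain, and Ciita, which encodes the class II transactivator. They were chosen by symbol, and each symbol matched 1 of the 32285 genes in the files, so the 5 genes are 5 of 32285. The study measured splenic dendritic cells (DC) by droplet single-cell RNA sequencing with 3′ counting of unique molecular identifiers (UMIs). One library came from WT mice (H2-Aa +/+) and the other from H2-Aa cit/cit mice, called cit here. Each library pooled live CD45.2+ CD11c+ cells, enriched on CD11c and sorted, from 3 naive females that were 4 months old, and the mouse of origin of a cell is not recorded in the files. The citation (cit) allele is a germline change induced by N-ethyl-N-nitrosourea in a C57BL/6J screen. It lies at the fifth base of intron 1 of H2-Aa, in the splice donor region, and is carried by every cell of the animal.

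MHC-II molecules are αβ dimers that present peptides from endocytosed proteins to CD4 T cells. The invariant chain binds newly made dimers in the endoplasmic reticulum, blocks the peptide groove and carries the dimers to endosomes, where it is degraded and H2-DM exchanges the remaining fragment for a peptide. CIITA does not bind DNA itself but is recruited by RFX, CREB and NF-Y on a shared promoter module of X and Y boxes, and it drives the MHC-II genes and Cd74 together. DC are known to shut down Ciita transcription as they mature, while the protein already on the surface is held in place. C57BL/6 mice make no I-E α chain, so the H2-Eb1 product has no I-E partner there.

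With 1 library per genotype there is no replicate error, and no test between genotypes was possible. Values are given with 95% intervals, exact Poisson for levels, exact conditional binomial for ratios and exact Clopper-Pearson for shares of cells, and these cover counting error only. A gene is called past the fold when its level differed at least 1.5-fold between the libraries of a class, among genes with at least 50 CPM there in either library. CPM means UMIs of a gene per 1000000 UMIs, both added up across the cells of a class.

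The gene H2-Aa lies on the minus strand of chromosome 17 (GRCm38, chr17:34282744-34287823) between H2-Ab1 (chr17:34257689-34269419, plus strand) and H2-Eb1 (chr17:34305867-34316674, plus strand), and Ciita lies on chromosome 16 (chr16:10480059-10528418, plus strand). H2-Aa has 5 exons in GENCODE vM21. Intron 1 is 3145 bases long (chr17:34284537-34287681), and the base that the cit allele changes is at position 34287677. The stretches that a correctly spliced transcript joins across this intron are shown because they flank the intron that holds the changed base. The base itself lies in the intron, in neither stretch. Exon 5, which is 280 bases long and holds no coding sequence, forms the 3′ end that the assay counts, so a UMI does not tell whether intron 1 had been removed.
End of exon 1 (chr17:34287682-34287711, minus strand): gcctctgtggaggtgaagacgacattgagg
Start of exon 2 (chr17:34284507-34284536, minus strand): ccgaccacgtaggcacctatggtataagtg

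The promoters of H2-Aa and H2-Eb1 are shown because the levels of the α and β chain genes are compared throughout and both carry the module that CIITA acts on. Of the 5 genes, 2 had an entry in the RefSeq promoter table (GRCm38.p6). Capitals mark an X1 box core, GCAAC, followed by a Y box core, ATTGG, both read on the gene's own strand.
H2-Aa promoter (chr17:34287824-34287924, minus strand): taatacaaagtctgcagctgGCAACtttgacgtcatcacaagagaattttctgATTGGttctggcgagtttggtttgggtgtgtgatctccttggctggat
H2-Eb1 promoter (chr17:34305756-34305857, plus strand): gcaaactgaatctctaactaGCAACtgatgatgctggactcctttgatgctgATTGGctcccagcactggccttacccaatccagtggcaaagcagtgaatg
The cores start 33 bases apart in H2-Aa and 32 bases apart in H2-Eb1. With a spacing of 25 to 45 bases, a range set after these promoters had been read, the pair was found in 0.843% of 32851 promoters, against 29.9% for GCAAC alone and 33.8% for ATTGG alone. Among 6 other MHC-II genes in the table, 3 held the pair, namely H2-Eb2, H2-Oa and H2-Ob. These shares and this count took a match on either strand within the 250 bases upstream of the start. A match describes the letters of these windows and not the binding of a factor.

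There were 7814 WT cells with 51020804 UMIs and 11525 cit cells with 72652201 UMIs. Cells were gated into classes by marker genes, none of them among the 5 genes. The cDC1 gate (Xcr1, Clec9a and others) held 623 WT and 688 cit cells, the cDC2 gate (Sirpa, Clec4a4, Cd209a and others) 2662 and 5426, the gate for mature DC (Ccr7, Fscn1, Il4i1 and others) 2239 and 1486, the plasmacytoid DC (pDC) gate (Siglech, Ccr9 and others) 87 and 97, and the gate for cycling cells (Top2a, Mki67 and others) 335 and 650. Within each gate its own list had the highest summed level of all lists in both libraries, and the summed T, B and NK cell lists stayed at or below 53.9 CPM in each class except for the T cell list in pDC, at 268.6 and 208.8 CPM. The summed monocyte list was highest in cDC1, at 424.8 and 352.8 CPM. The libraries also differed in a respect that touches many of the results below. Cells with less than 8% of UMIs from ribosomal protein genes, a group apart in the distribution, made up 39.8% of WT and 21.9% of cit cDC2, and 52.0% and 36.2% of mature DC. The cDC1 differed in depth too, with a median of 8172 UMIs per WT cell and 13864.5 per cit cell. Their summed cDC1 list came to 3482 CPM for WT and 2641 CPM for cit. Apart from values given at equal depth, the part of depth in the cDC1 results below was not tested. Nor was the part of this marker difference. The barcodes of 31 cells occurred in both libraries.

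H2-Aa was lower in the cit library by about 2 orders of magnitude in every class. In cDC2 its level was 6446 CPM (6408 to 6484) in WT and 78.7 CPM (75.8 to 81.7) in cit cells, which is 1.22% (1.17 to 1.27) of the WT level and a log2 ratio of -6.36 (-6.41 to -6.30). In cDC1 it was 6884 CPM (6821 to 6948) in WT and 45.2 CPM (41.0 to 49.8) in cit cells, or 0.657% (0.595 to 0.723) of the WT level. Mature DC held 3722 CPM (3692 to 3753) and 50.7 CPM (45.8 to 55.9), or 1.36% (1.23 to 1.50). In pDC, with 3169 and 37 H2-Aa UMIs, the levels were 3606 CPM (3482 to 3734) and 59.0 CPM (41.5 to 81.3), or 1.63% (1.15 to 2.26). Cycling cells held 4810 CPM (4737 to 4884) and 54.8 CPM (49.1 to 61.0), or 1.14% (1.02 to 1.27).

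H2-Aa had the lowest ratio of all genes measured in cDC2 (3806 genes), in mature DC (3617) and in pDC (4049). In cDC1, 4 of 3560 genes had a lower ratio, the hemoglobin genes Hbb-bt, Hbb-bs, Hba-a1 and Hba-a2, and in cycling cells 2 of 4074, the platelet factor gene Pf4 and the immunoglobulin gene Igkc. These 6 genes were named after their values had been seen. The share of all genes past the fold toward lower levels in cit cells was 6.83% in cDC1, 2.13% in cDC2, 5.83% in mature DC, 3.38% in pDC and 1.42% in cycling cells, and H2-Aa was the 1 gene of the 5 that was lower past the fold in each of these classes.

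**Figure D1:**
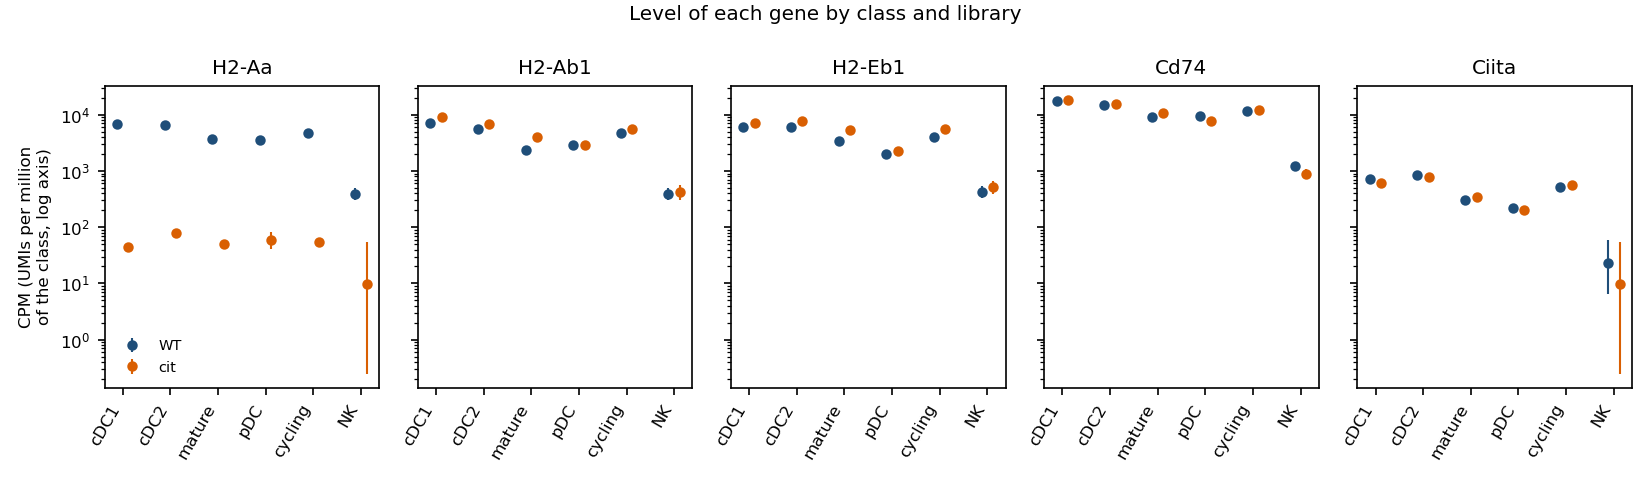
Level of each of the 5 genes (CPM, log axis) in 5 DC classes and in NK cells, in the WT (blue) and cit (orange) library; bars are 95% exact Poisson intervals. H2-Aa lies between 3606 and 6884 CPM in WT and between 45.2 and 78.7 CPM in cit DC, while for each of the other 4 genes the libraries differ by less than 1.5-fold in these DC classes, except H2-Ab1 and H2-Eb1 in mature DC.

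The order of the WT levels of H2-Aa was cDC1, cDC2, cycling cells, mature DC and pDC, and the neighbours in this order differed beyond their counting intervals except for mature DC and pDC. In cit cells the order was different. cDC2 came first and cDC1 last, with pDC, cycling cells and mature DC between them. All neighbours in that order overlapped, but the interval of cDC2 lay above those of cycling cells, mature DC and cDC1. As a share of the WT level, the residue was lowest in cDC1, at 0.657%, and its interval lay below those of the other 4 DC classes. Within cDC2 the level was 56.4 CPM (48.6 to 65.2) in cit cells under 8% ribosomal UMIs and 81.0 CPM (77.9 to 84.1) in those of 8% or more, which is 2.35% (2.02 to 2.72) and 1.07% (1.03 to 1.12) of the WT level in the same group.

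The remaining H2-Aa UMIs were thinly spread over cells. Of 11525 cit cells, 8101 held no H2-Aa UMI, 2451 held 1, 686 held 2, 204 held 3, 61 held 4 and 22 held 5 or more, and the highest number in a cell was 10. The 116 cells with the most H2-Aa UMIs, 1% of the library, carried 471 of the 4807 UMIs (9.80%). After each cell was thinned to 1500 UMIs, 10.9% (10.0 to 11.7) of 5253 cit cDC2 held an H2-Aa UMI, against 96.8% (96.0 to 97.4) of 2603 WT cDC2. Without thinning these shares were 35.8% and 99.5%. The thinned share was 6.88% (5.08 to 9.07) in cDC1, 6.37% (5.14 to 7.78) in mature DC, 7.37% (3.01 to 14.6) in pDC and 6.74% (4.90 to 9.0) in cycling cells of the cit library, where these WT classes had shares between 83.8% and 98.5%. Unthinned, the 4 cit classes had 41.3%, 20.5%, 29.9% and 34.3%.

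NK cells were used as the comparison for background UMIs, on the assumption that they make little MHC-II. Neither this assumption for CD11c+ NK cells nor the source of the background UMIs was tested. The 28 WT NK cells, with a median of 4654 UMIs, held H2-Aa at 388 CPM (300 to 494), and 14 of them had an H2-Aa UMI after thinning. The 21 cit NK cells, with a median of 3192 UMIs, held a single H2-Aa UMI, or 9.69 CPM (0.245 to 54.0). After thinning, 0 of the 17 deep enough had one, which allows a share of cells with an H2-Aa UMI of up to 17.6% at a limit of 3 cells (exact Clopper-Pearson upper bound 19.5%). The interval of cit cDC2 lay above that of NK cells, which rests on this 1 UMI, while those of the other DC classes overlapped it. H2-Ab1 in the same NK cells was at 426 CPM (310 to 572), close to the 394 CPM (306 to 501) in WT NK cells. Monocytes, at 41.4 CPM (29.1 to 57.0), and macrophages, at 63.2 CPM (25.4 to 130.2), of the cit library held H2-Aa too. The monocyte interval overlapped those of the DC classes except cDC2, and the macrophage interval, from 7 UMIs, overlapped all 5.

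**Figure D2:**
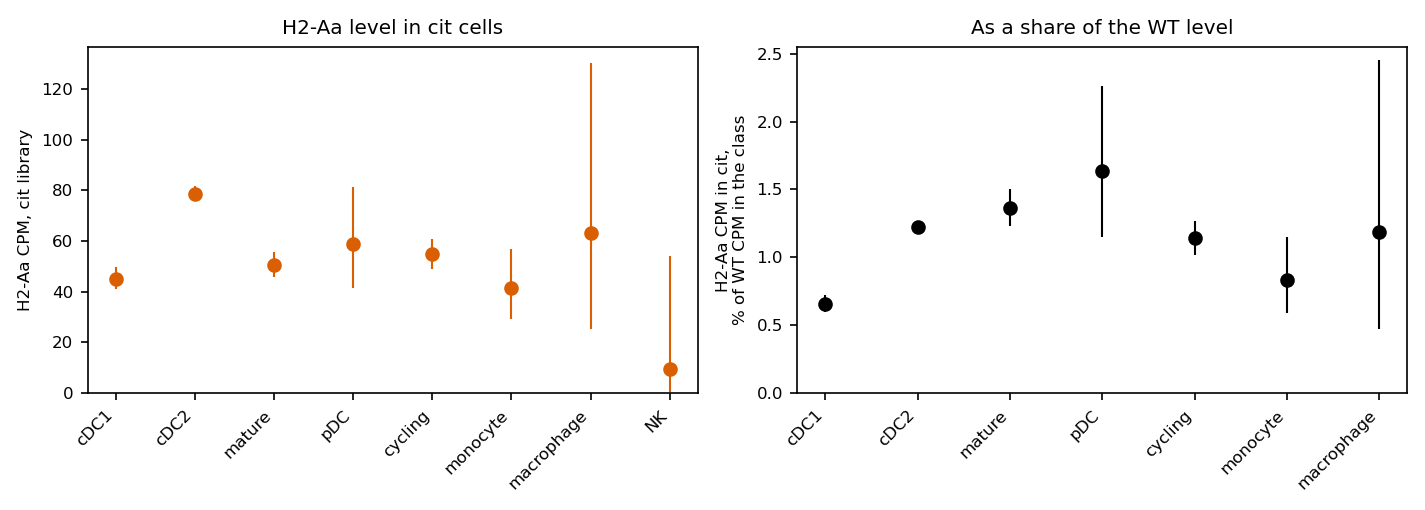
Left, H2-Aa level in each class of the cit library (CPM, linear axis from 0); right, the same as a percentage of the WT level in that class, without NK cells, where a single UMI was found. Bars are 95% intervals for counting error. cDC2 have the highest level among DC, 78.7 CPM, and cDC1 the lowest, 45.2 CPM and 0.657% of WT.

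Cells whose barcode also occurred in the WT library were not richer in H2-Aa. The 31 such cit cells held 9 H2-Aa UMIs, at 52.0 CPM (23.8 to 98.8) and at most 2 in a cell, against 66.2 CPM (64.3 to 68.1) in the other 11494 cells. The WT cells with those barcodes held 737 H2-Aa UMIs, up to 114 in a cell.

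In WT cells H2-Aa went up and down with its partner gene H2-Ab1 from cell to cell. Thinned WT cDC2 were ordered by their H2-Ab1 UMIs and divided into 4 equal groups, and H2-Aa was at 2081 CPM (1991 to 2173) in the group lowest in H2-Ab1 and at 9476 CPM (9284 to 9671) in the highest. The residue in cit cDC2 showed no such slope. It was at 67.0 CPM (56.0 to 79.4) in the lowest group, 85.8 CPM (73.4 to 99.8) and 79.7 CPM (67.7 to 93.2) in the middle groups and 77.7 CPM (65.9 to 91.0) in the highest, while H2-Ab1 ran from 1952 to 11188 CPM. In cDC1 the values were 39.7, 55.9, 39.9 and 51.9 CPM with overlapping intervals.

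Mature DC of the cit library were different in this respect. The residue ran from 5.71 CPM (1.18 to 16.7) through 38.1 CPM (23.3 to 58.8) and 59.2 CPM (40.2 to 84.1) to 84.0 CPM (61.1 to 112.8) in the group highest in H2-Ab1. The 350 cells of the lowest group held 3 H2-Aa UMIs in all. Low-ribosomal cit mature DC held less of both H2-Aa and H2-Ab1 than the other cit mature DC. Groups ordered by H2-Ab1 may therefore differ in ribosomal share too, and the part of that share in this slope was not tested. WT mature DC ran from 951 CPM (884 to 1021) to 8042 CPM (7845 to 8241). Pearson's r between H2-Aa and H2-Ab1 over thinned WT cells was 0.67 in 607 cDC1, 0.72 in 2603 cDC2 and 0.77 in 2119 mature DC, and in cit cells it was 0.037 in 669 cDC1, 0.018 in 5253 cDC2 and 0.13 in 1398 mature DC. Among cells of 8% or more ribosomal UMIs it was 0.52 in WT cDC2 and 0.74 in WT mature DC. In cit cells of that group it was -0.024 in cDC2 and 0.10 in mature DC. Cells of a library share its free RNA and its preparation, and counts near 0 or 1 lower any correlation, so these are descriptions and the weak values are no finding.

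**Figure D3:**
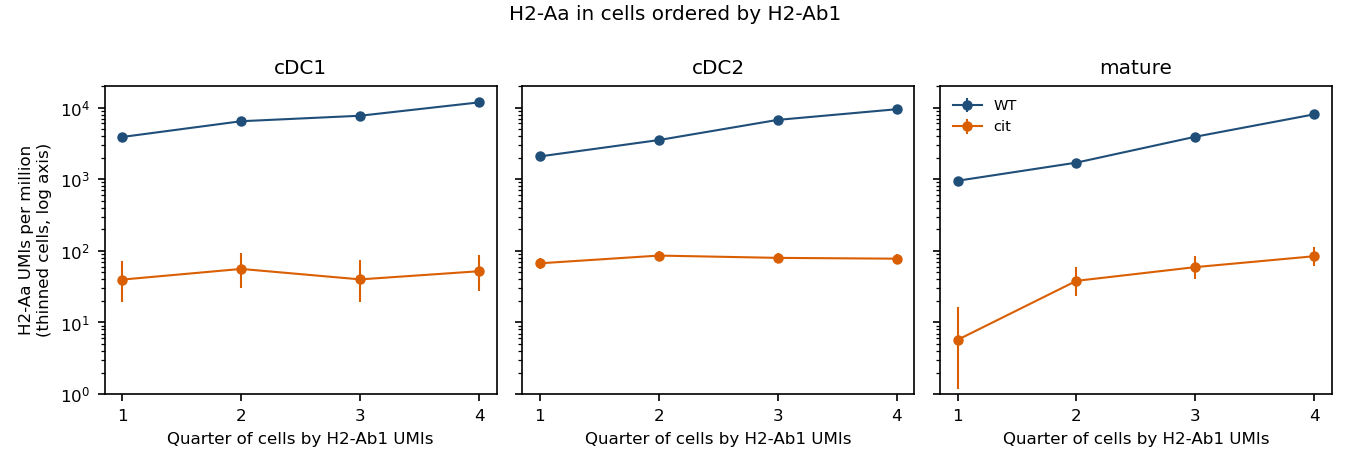
H2-Aa level (CPM over cells thinned to 1500 UMIs, log axis) in 4 equal groups of cells ordered by H2-Ab1 UMIs, from lowest (1) to highest (4), in cDC1, cDC2 and mature DC of the WT (blue) and cit (orange) library; bars are 95% Poisson intervals. The WT lines rise in each class, and in cit cells the mature DC rise from 5.71 to 84.0 CPM while cDC1 and cDC2 stay level.

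The β chain genes were retained in cit cells and were higher than in WT cells in most classes. H2-Ab1, the obligate partner of H2-Aa, stood at 5617 CPM (5581 to 5652) in WT cells and 6914 CPM (6887 to 6942) in cit cDC2, a log2 ratio of 0.30 (0.29 to 0.31). In cDC1 it was at 7165 CPM (7101 to 7231) and 8989 CPM (8928 to 9050), a log2 ratio of 0.33 (0.31 to 0.34). Over cDC1 thinned to 1500 UMIs, H2-Ab1 had a log2 ratio of 0.23. In cycling cells it was at 4800 CPM (4727 to 4874) and 5665 CPM (5605 to 5725), a log2 ratio of 0.24 (0.21 to 0.27). pDC had the same level in both, 2866 CPM (2755 to 2980) and 2861 CPM (2730 to 2996), within a log2 ratio of -0.090 to 0.086.

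Mature DC stood apart. Their H2-Ab1 level was 2393 CPM (2368 to 2417) in WT and 4014 CPM (3970 to 4059) in cit cells, 1.68-fold higher (1.65 to 1.70), and H2-Eb1 was at 3369 CPM (3340 to 3398) and 5361 CPM (5310 to 5412), 1.59-fold higher (1.57 to 1.61). Over the 5 whole DC classes these were the 2 genes of the 5 past the fold toward higher levels, and mature DC were the class in which they were. H2-Eb1 also passed it in pDC under 1 of 8 alternatives, the gate by highest marker z-score, at a log2 ratio of 0.64. That gate put 807 WT and 1214 cit cells in pDC, against 87 and 97 in the main gate. In macrophages, outside the DC classes, H2-Ab1 was 1.50-fold higher (1.36 to 1.66) and Ciita 1.59-fold higher (1.10 to 2.29), from 71 and 55 Ciita UMIs. The share of all genes past the fold in that direction was 9.47% in cDC1, 2.18% in cDC2, 3.79% in mature DC, 4.15% in pDC and 2.28% in cycling cells. This share was not computed for macrophages. In mature DC 98.0% of the 3617 genes had a lower ratio than H2-Ab1 and 97.3% a lower ratio than H2-Eb1. Whether mature DC differ in this from other classes was not tested, since each class comes from the same pair of libraries.

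The ribosomal share moved with this result. Mature DC with less than 8% ribosomal UMIs held less H2-Ab1 than the others in both libraries, at 1255 CPM (1229 to 1282) against 3314 CPM (3275 to 3353) in WT and 1683 CPM (1628 to 1740) against 4844 CPM (4788 to 4901) in cit cells. Within the cells of 8% or more the ratio was 1.46-fold (1.44 to 1.49), and within those under 8% it was 1.34-fold (1.29 to 1.39), so H2-Ab1 was under the fold in both. For H2-Eb1 the folds were 1.39 (1.37 to 1.41) and 1.32 (1.28 to 1.36). The difference thus kept its direction in each group of cells, and the larger ratio over the whole class went with the smaller share of low-ribosomal cells in the cit library. How much of it that share accounts for was not tested. The summed mature marker list was also lower in cit mature DC, at 4796 CPM in WT and 3799 CPM in cit cells. The summed cDC2 list was higher there, at 357 CPM in WT and 485 CPM in cit cells. The part of these marker differences in the H2-Ab1 and H2-Eb1 ratios was not tested.

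Mature DC that also carried cDC1 genes, 258 WT and 55 cit cells, had the widest gap. H2-Ab1 stood at 2154 CPM (2100 to 2209) in WT cells and 5742 CPM (5524 to 5965) in cit cells, 2.67-fold higher (2.55 to 2.79), and H2-Eb1 was 2.25-fold higher (2.16 to 2.35). Cd74 was 1.72-fold higher (1.67 to 1.77) and Ciita 2.25-fold higher (1.88 to 2.68), from 481 and 176 Ciita UMIs. The low-ribosomal share was 48.4% and 32.7% in these cells, and its part in the result was not tested. The share of all genes past the fold was not computed for these cells, so the folds have no background beside them. Over the mature DC without cDC1 genes, 1981 and 1431 cells, H2-Ab1 was 1.60-fold higher (1.57 to 1.62) and H2-Eb1 1.52-fold higher (1.50 to 1.54), while Ciita was at 338 CPM (328 to 349) and 345 CPM (331 to 358).

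H2-Eb1, whose product has no I-E α partner in C57BL/6 mice, was higher in cit cells in all 5 DC classes. Its log2 ratio was 0.36 (0.35 to 0.37) in cDC2, 0.22 (0.20 to 0.24) in cDC1, 0.21 (0.11 to 0.31) in pDC and 0.44 (0.41 to 0.47) in cycling cells. In cDC2 it went from 6056 CPM (6020 to 6093) in WT to 7797 CPM (7768 to 7827) in cit cells. Among cDC2 with 8% or more ribosomal UMIs the log2 ratio was 0.24 (0.23 to 0.25) for H2-Eb1 and 0.16 (0.15 to 0.17) for H2-Ab1, and among those under 8% both were at 0.29 (H2-Eb1 0.25 to 0.33, H2-Ab1 0.25 to 0.34). For comparison, the middle 50% of all genes in cDC2 had log2 ratios from -0.19 to 0.11. In cDC1 and pDC the H2-Eb1 ratio lay near the upper end of that middle range. There 75.3% and 75.4% of all genes had a lower ratio.

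**Figure D4:**
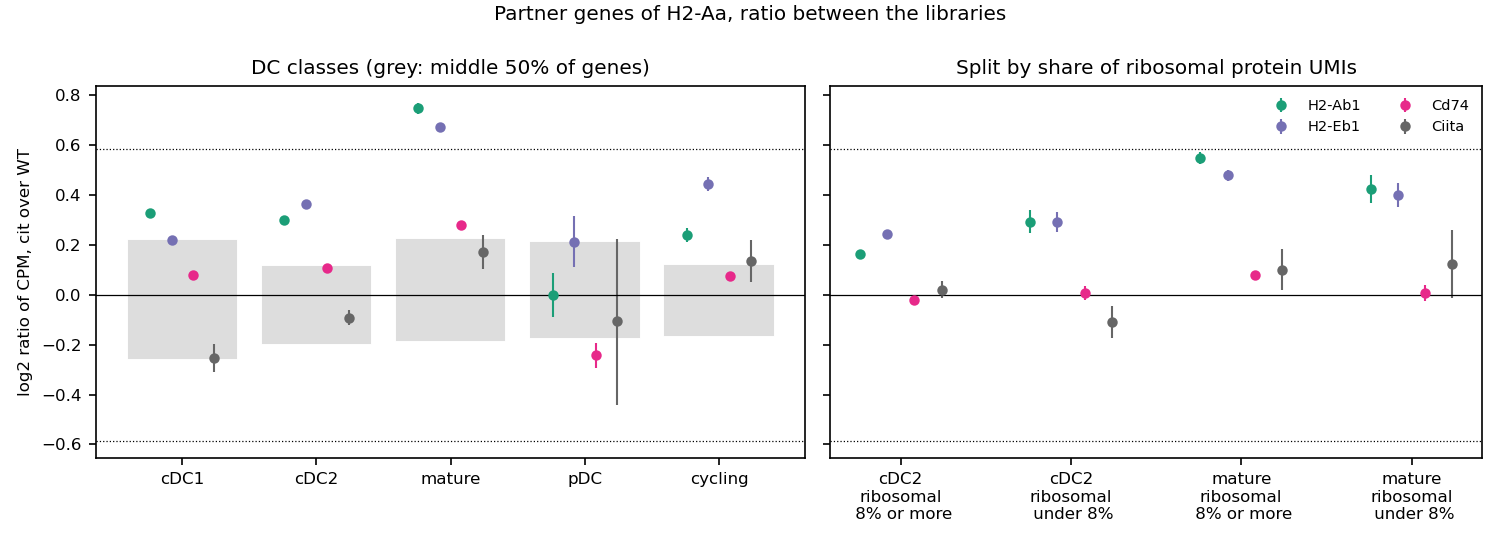
log2 ratio of CPM between the cit and WT libraries for H2-Ab1, H2-Eb1, Cd74 and Ciita. Left, 5 DC classes, with grey boxes for the middle 50% of genes of at least 50 CPM; right, cDC2 and mature DC split at 8% ribosomal UMIs. Bars are 95% counting intervals and dotted lines mark 1.5-fold. H2-Ab1 (0.75) and H2-Eb1 (0.67) are past 1.5-fold in mature DC and neither is in either group of the split.

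Cd74, the most abundant of the 5 in UMIs, differed less. Its level in cDC2 was 14724 CPM (14667 to 14781) in WT and 15859 CPM (15818 to 15901) in cit cells, a log2 ratio of 0.11 (0.10 to 0.11). The ratio was 0.077 (0.067 to 0.088) in cDC1, 0.28 (0.27 to 0.29) in mature DC and 0.074 (0.056 to 0.091) in cycling cells, and in pDC Cd74 was lower, at -0.24 (-0.29 to -0.19). Within the ribosomal groups of cDC2 and mature DC the ratio came close to 0. It was -0.023 (-0.030 to -0.016) in cDC2 of 8% or more and 0.0070 (-0.022 to 0.036) in cDC2 under 8%, and 0.078 (0.065 to 0.092) and 0.0078 (-0.025 to 0.040) in mature DC. The sign in cDC1 and pDC also turned under other scalings, gates or depths. Cd74 UMIs per H2-Ab1 UMI were accordingly fewer in cit cells, 2.29 (2.28 to 2.30) against 2.62 (2.60 to 2.64) in cDC2, 2.06 (2.04 to 2.08) against 2.45 (2.43 to 2.48) in cDC1 and 2.73 (2.70 to 2.77) against 3.78 (3.73 to 3.82) in mature DC.

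Ciita, the regulator of the other 4 genes, differed by less than 1.5-fold in each of the 5 whole DC classes, but not in the mature DC with cDC1 genes described above. It stood at 837 CPM (824 to 851) in WT cells and 786 CPM (777 to 795) in cit cDC2, a log2 ratio of -0.092 (-0.12 to -0.063). In cDC1 the ratio was -0.25 (-0.31 to -0.20), in mature DC 0.17 (0.10 to 0.24), in cycling cells 0.14 (0.052 to 0.22) and in pDC -0.11 (-0.44 to 0.22), where the interval from 193 and 128 UMIs spans 0. In cDC2 of 8% or more ribosomal UMIs the levels were 744 CPM (730 to 759) and 754 CPM (744 to 764). The sign in cDC1, mature DC and pDC turned under at least 1 other scaling, gate or depth, and in pDC thinned to 1500 UMIs it was lower past the fold, at a log2 ratio of -0.77.

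The order of classes by Ciita level was cDC2, cDC1, cycling cells, mature DC and pDC in both libraries, and all neighbours differed beyond counting error. H2-Ab1 ran from cDC1 through cDC2 and cycling cells to mature DC and pDC, with mature DC below pDC in WT and above them in cit cells. Mature DC thus held less of both Ciita and the chain genes than cDC2, in either genotype. Ciita stood at 308 CPM (299 to 317) in WT cells and 347 CPM (334 to 360) in cit mature DC.

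In low-ribosomal cDC2 the level of Ciita and those of its targets lay on opposite sides of the other cDC2. In WT these cells held H2-Ab1 at 2056 CPM (2010 to 2103) against 6580 CPM (6537 to 6623) in the other cDC2, and Cd74 at 5657 CPM (5581 to 5734) against 17176 CPM (17107 to 17246). Ciita went the other way, with 1183 CPM (1148 to 1219) against 744 CPM (730 to 759). The cit library had the same pattern, with H2-Ab1 at 2518 CPM (2464 to 2573) against 7367 CPM (7337 to 7397) and Ciita at 1096 CPM (1061 to 1133) against 754 CPM (744 to 764). Ciita UMIs per H2-Ab1 UMI were 0.575 (0.554 to 0.597) in low-ribosomal WT cDC2 and 0.113 (0.111 to 0.115) in the others. The same directions were seen in cDC1, cycling cells and pDC of both libraries. In low-ribosomal WT cDC1, Ciita was at 1187 CPM against 692 CPM and H2-Ab1 at 3265 CPM against 7447 CPM. In mature DC, Ciita was lower in low-ribosomal cells, at 264 CPM against 343 CPM in WT. Low-ribosomal cells were also shallower, with medians of 3202 and 8380 UMIs in WT and 2430 and 6936 UMIs in cit cDC2, and the part of depth and RNA quality in this contrast was not tested.

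The relation of the chain genes to each other depended on the class. H2-Aa UMIs per H2-Ab1 UMI in WT cells were 0.961 (0.948 to 0.973) in cDC1, 1.002 (0.981 to 1.024) in cycling cells, 1.15 (1.14 to 1.16) in cDC2, 1.26 (1.19 to 1.33) in pDC and 1.56 (1.54 to 1.58) in mature DC. H2-Eb1 UMIs per H2-Ab1 UMI were fewest in WT pDC, 0.694 (0.653 to 0.738), and most in WT mature DC, 1.41 (1.39 to 1.43). In the cit library mature DC again had the most, 1.34 (1.32 to 1.36), and the fewest were in cDC1, 0.795 (0.786 to 0.803), with pDC at 0.806 (0.751 to 0.864) overlapping them. H2-Aa and H2-Eb1 were thus not held in a fixed proportion to H2-Ab1 over DC classes in WT mice. The promoter of H2-Ab1 was not among those read. Such ratios between genes also carry each gene's own capture, and the part of depth and ribosomal share in their differences between classes was not tested.

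At 1500 UMIs a cell, the median of H2-Ab1 in cDC2 was 6 UMIs in WT (middle 50% of cells 3 to 10) and 9 UMIs in cit cells (5 to 13), and in cDC1 it was 10 UMIs (6.5 to 15) and 13 UMIs (10 to 17). In cDC2 both ends of the distribution were higher in cit cells, the 5th and 95th percentiles being 1 and 17 UMIs in WT and 2 and 19 in cit cells, whereas cit cDC1 were higher at the low end alone, with 2 and 24 against 4 and 22. In mature DC it was 2 UMIs (0 to 5) and 4 UMIs (1 to 8), and 73.6% (71.6 to 75.4) of WT and 82.1% (80.0 to 84.1) of cit mature DC held at least 1 (unthinned 92.8% and 93.2%). The Fano factor of H2-Ab1, the variance of thinned UMIs over their mean, was 4.03 in WT and 3.09 in cit cDC2, 3.84 and 2.55 in cDC1 and 5.13 and 5.80 in mature DC. Among cDC2 of 8% or more ribosomal UMIs, the medians were 9 and 11 UMIs and the Fano factors 2.40 and 2.10. Under 8% the medians were 2 and 3 UMIs and the Fano factors 2.14 and 2.12. The part of the ribosomal share in the differences of spread was not tested. NK cells had an H2-Ab1 UMI in 42.9% (24.5 to 62.8) of 28 WT and 47.1% (23.0 to 72.2) of 17 cit cells at this depth.

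**Figure D5:**
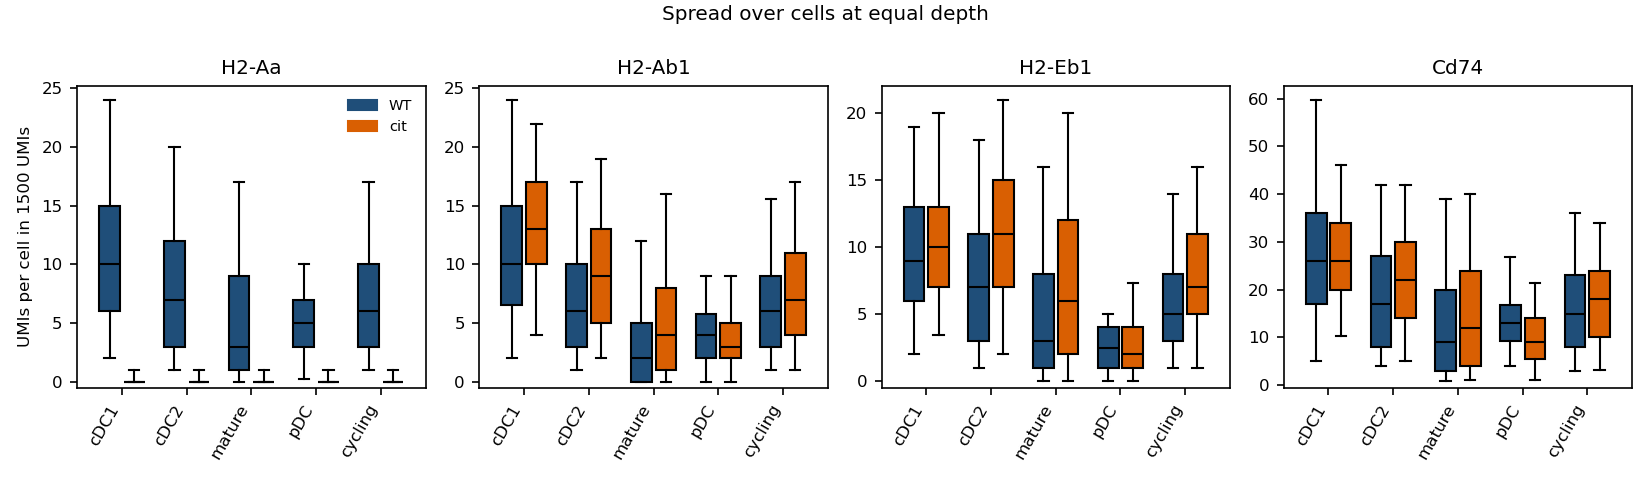
UMIs per cell of H2-Aa, H2-Ab1, H2-Eb1 and Cd74 after each cell was thinned to 1500 UMIs, by DC class, in the WT (blue) and cit (orange) library; boxes span the middle 50% of cells, lines inside are medians and whiskers reach the 5th and 95th percentiles. The vertical axes differ between genes. Medians of H2-Ab1 are 6 in WT and 9 in cit cDC2, and H2-Aa medians are 0 in cit cells.

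Within a library, H2-Ab1, H2-Eb1 and Cd74 varied together over cells in both genotypes, with Pearson's r between H2-Ab1 and Cd74 of 0.74 in WT and 0.67 in cit cDC2. Ciita did not vary with them in cDC2, with r between H2-Ab1 and Ciita of -0.17 in WT and -0.10 in cit cells, and in mature DC these values were 0.28 and 0.26. Among cDC2 of 8% or more ribosomal UMIs, r between H2-Ab1 and Cd74 was lower, at 0.53 in WT and 0.49 in cit cells. That between H2-Ab1 and Ciita was -0.032 and -0.025 there. Ciita has a median of 1 UMI in thinned cDC2, so its correlations are bounded by sampling.

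Over 11 gated classes of the WT library and 6558 genes, the genes with the pattern most like H2-Ab1 by Pearson's r of log2(CPM + 5) were Tm2d2 (0.95), H2-DMb1 (0.94), Gm2a (0.93), Snhg6 (0.92) and Itpripl2 (0.90). H2-DMb1 encodes a chain of the peptide exchange factor H2-DM, and Gm2a a lysosomal lipid activator protein. In the cit library the same pairs gave 0.69, 0.87, 0.88, -0.11 and 0.64. The other members gave 0.97 for H2-Aa, 0.95 for H2-Eb1, 0.98 for Cd74 and 0.80 for Ciita in WT. Most like Ciita were the kinase gene Lrrk2 (0.98), the kinase gene Eif2ak4 (0.96), Gm20513 (0.95), the kinase gene Pak1 (0.94) and Tbc1d32 (0.94). The highest WT level of Ciita among the 11, 1183 CPM, was that of low-ribosomal cDC2, and the part of the ribosomal split in these values was not tested. The classes share their libraries and differ in ribosomal share, so these values only rank likeness.

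Among the genes of factors that recruit CIITA to DNA, none of those measured was past the fold. Of 7 enhanceosome genes (Rfx5, Rfxank, Rfxap, Nfya, Nfyb, Nfyc and Creb1), 3 reached 50 CPM in cDC2. Rfx5, Rfxank and Rfxap stayed under 50 CPM in both libraries in every DC class and were not among the genes measured. Creb1 stood at 177 CPM in WT cells and 157 CPM in cit cells, Nfyc at 85.5 and 79.5 CPM and Nfya at 55.6 and 48.5 CPM. The median log2 ratio of these 3 was -0.17, where that of all genes in cDC2 was -0.064, and none of the 2 or 3 measured in the other classes was past the fold. Of all genes in cDC2, 2.18% were higher and 2.13% lower past the fold, so so few genes do not set the list apart.

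Of 9 listed regulators of Ciita, 1 of 7 measured was higher past the fold in cDC1 (9.47% of all genes), 1 of 8 lower in mature DC (5.83%) and 1 of 7 lower in cycling cells (1.42%), and none of 7 was past it in cDC2 or pDC. Counts of 1 gene do not set the list apart from all genes. Spi1, which encodes PU.1, was at 567 and 563 CPM there, Tcf4 at 204 and 184 CPM and Id2 at 125 and 167 CPM. The interferon-responsive factor gene Irf1 was higher in cit cDC1, at 74.5 CPM in WT and 123.5 CPM, a log2 ratio of 0.73 (0.58 to 0.89). Id2, an inhibitor of E proteins, was lower in cit mature DC, at 780 and 496 CPM, a log2 ratio of -0.65 (-0.71 to -0.60). Mature DC with cDC1 genes were 258 of 2239 in WT and 55 of 1486 in cit cells, and the part of this difference in the Id2 value was not tested. Irf8, the factor that cDC1 depend on, was lower in cit cycling cells, at 441 and 281 CPM, a log2 ratio of -0.65 (-0.75 to -0.55). The share of cycling cells with cDC1 genes differed too, 64 of 335 in WT and 64 of 650 in cit cells, and its part in that value was not tested. Tcf4 is also among the markers of the pDC gate.

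Of 8 other MHC-II genes listed, 6 matched a gene in the files and 5 were measured in mature DC, where 1 was higher past the fold (3.79% of all genes) and their median log2 ratio was 0.48 against 0.0064 for all genes. The low-ribosomal share in mature DC was 52.0% in WT and 36.2% in cit cells, and its part in these values was not tested. Nor was the part of the lower mature marker level in cit mature DC. H2-DMa, the α chain of H2-DM, was past the fold with 128 CPM in WT and 210 CPM in cit cells, a log2 ratio of 0.71 (0.61 to 0.80), and H2-DMb2, a β chain of the same dimer, was at 123 and 172 CPM. H2-Oa, a chain of the H2-DM inhibitor H2-O, was at 132 and 171 CPM. In cDC2 all 6 were measured and none was past the fold, with H2-DMa at 474 and 582 CPM, H2-Oa at 308 and 347 CPM, H2-DMb1 at 303 and 350 CPM and H2-DMb2 at 274 and 290 CPM. In pDC H2-DMb2 was lower past the fold, from 122 and 53 UMIs, with a log2 ratio of -0.72 (-1.21 to -0.24).

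Of the listed proteases and reductases that prepare peptides and cut the invariant chain, none of those measured was past the fold in any of the 5 classes. In cDC1 and in cycling cells 4 of 7 were measured, and Ctsl and Ctsd stayed under 50 CPM there. In cDC2, 5 of 7 were measured, where 2.18% of all genes were higher and 2.13% lower past the fold. Ifi30, a lysosomal thiol reductase, was at 879 and 876 CPM, and Ctss, the protease of the last invariant chain steps in DC, at 838 and 816 CPM. Sppl2a, which cleaves the last invariant chain stub in the membrane, was at 120 and 138 CPM, and Ctsb at 120 and 136 CPM. Of 5 symbols listed for surface turnover, 3 matched a gene in the files, and 2 were measured in cDC1 and in cDC2. March8 stayed under 50 CPM in every DC class, and in cDC1 had 9 and 80 UMIs, a log2 ratio of 2.65 (1.65 to 3.83). March1, which encodes the ubiquitin ligase that marks MHC-II for degradation, was at 623 and 599 CPM in cDC2. In cDC1 it was at 753 and 579 CPM, a log2 ratio of -0.38 (-0.44 to -0.32). Cd83, whose product opposes that ligase, was at 171 and 144 CPM in cDC2 and was past the fold in cDC1, at 205 and 110 CPM, with a log2 ratio of -0.90 (-1.02 to -0.78). That is 1 of 2 measured, where 6.83% of all genes in cDC1 were lower past the fold. A count of 1 gene does not set the list apart.

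Of 8 genes listed beside H2-Aa in the MHC region, 6 were measured in cDC2, and none of those measured was past the fold in any of the 5 classes. In cDC2 Psmb8 stood at 347 CPM in WT cells and 451 CPM in cit cells, Psmb9 at 251 and 298 CPM, H2-Ob at 164 and 173 CPM and Tap1 at 102 and 132 CPM. Psmb8 and Psmb9 encode immunoproteasome subunits and Tap1 a subunit of the peptide transporter for MHC-I. The median log2 ratio of the 6 in cDC2 was 0.20, beside -0.064 for all genes. In mature DC it was -0.015 over 5 genes, beside 0.0064 for all genes, and Tap2, the other transporter subunit, was at 174 and 125 CPM there, a log2 ratio of -0.48 (-0.59 to -0.37), and Tap1 at -0.20 (-0.29 to -0.10). Notch4 stayed under 50 CPM in both libraries and was not among the genes measured, and in cDC1 it was at 36.1 and 15.4 CPM, a log2 ratio of -1.23 (-1.54 to -0.93), and in cycling cells at -1.25 (-2.08 to -0.44) from 32 and 24 UMIs. Tap2 and Notch4 were named after their values had been seen.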

How the data were processed

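The authors made the deposited files with Cell Ranger 5.0.1 against the mouse genome build mm10 (GRCm38), and they hold raw UMI counts per gene and cell, not normalized, for called cells alone, each with at least 500 UMIs. Cells of H2-Aa cit/cit mice are called cit. The authors later used Seurat, and no Seurat output was used here. Whether intronic reads were counted is not given in the sources used here.

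No cell was removed for its mitochondrial share, and no doublet caller was run. Left out of thinned values as too shallow were 59 and 173 cDC2 and 120 and 88 mature DC. Each cell was put in a class when UMIs of a marker list per 10000 UMIs and the number of its genes found passed limits, which were set on the markers' distributions. The split at 8% ribosomal UMIs and the limit that splits mature and cycling cells by cDC1 genes were chosen after seeing the data. Alternatives changed the scaling, the cells kept, the gates, the depth of thinning, the minimum CPM and the fold. Cells with markers of conflicting classes (124 WT, 99 cit) or of none (1488 and 2847) were left out of classes. Cells within 20% of a limit numbered 86 and 260 in cDC2 and 76 and 84 in mature DC. UMIs were summed per class and divided by the class total. Python 3.11.15, numpy 2.4.6, scipy 1.17.1, pandas 2.3.3 and matplotlib 3.10.9 were used. The ratio code was tested on simulated data. The genes described and the lists were chosen with earlier results of these data known. Named genes are the 5 genes described, up to 4 per list with the highest WT cDC2 level, and the 5 genes most like H2-Ab1 and Ciita, and list genes past the fold were named after their values had been seen. With 1 library per genotype and no map of cells to mice, no p-value was computed. The values of 1 listed regulator of Ciita are not reported here.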

Additional observations from a re-analysis of the deposited data

Results flagged for a closer look

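The ratios of Cd74 and Ciita pointed in opposite directions in different DC classes, with counting intervals away from 0. These differences between classes were not tested. The log2 ratio of Cd74 was 0.077 in cDC1, 0.11 in cDC2, 0.28 in mature DC and 0.074 in cycling cells, and -0.24 in pDC. That of Ciita was 0.17 in mature DC and 0.14 in cycling cells, and -0.25 in cDC1 and -0.092 in cDC2. All of these are below 1.5-fold. In cDC2 of 8% or more ribosomal UMIs both signs changed, to -0.023 (-0.030 to -0.016) for Cd74 and 0.019 (-0.014 to 0.053) for Ciita. Under the 8 alternatives the sign of Cd74 was kept in 5 in cDC1 and in 7 in pDC. That of Ciita was kept in 7 in cDC1 and in 6 in mature DC, and the other signs listed here were kept in all 8. The low-ribosomal share differed between the libraries in pDC as well, 12.6% of 87 WT cells and 26.8% of 97 cit cells, and its part in the Cd74 value was not tested. In pDC of 8% or more ribosomal UMIs the log2 ratio of Cd74 was -0.18 (-0.23 to -0.12). In pDC under 8% it was -0.59 (-0.90 to -0.27), from 170 WT and 179 cit Cd74 UMIs.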

How the results depend on the processing

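No paired analysis was possible because each genotype has 1 library and no cells are tied to mice. With no second library, leaving one out was not possible either. In the DC classes H2-Aa kept its direction and stayed past the fold under all 8 alternatives of scaling, cells, gates and depth, with log2 ratios from -7.31 to -5.77. In mature DC, H2-Ab1 ran from 0.57 to 0.77 and H2-Eb1 from 0.54 to 0.68, each past the fold in 7 of 8. These 8 leave out the limit to cells of 8% or more ribosomal UMIs. In mature DC of 8% or more the log2 ratios were 0.55 for H2-Ab1 and 0.48 for H2-Eb1, both under the fold. In pDC, H2-Eb1 ran from 0.065 to 0.64, past the fold in 1 of 8 (highest marker z-score), and Ciita was past it in 1 of 8 (thinned). The z-score gate held 807 WT and 1214 cit cells as pDC, far more than the main gate. In cDC2, scaling by the median ratio gave -6.29 for H2-Aa, 0.36 for H2-Ab1, 0.43 for H2-Eb1, 0.17 for Cd74 and -0.029 for Ciita, and the mean over cells gave -6.12, 0.42, 0.46, 0.20 and -0.14 in that order. Thinning to 1500 UMIs gave -6.13, 0.44, 0.47, 0.22 and -0.18. Cells of 8% ribosomal UMIs or more, an alternative added after seeing the data, gave -6.54, 0.16, 0.24, -0.023 and 0.019, so that Cd74 and Ciita changed sign. The highest marker z-score gave 0.32 for H2-Ab1, 0.38 for H2-Eb1 and 0.14 for Cd74, and doubled gate limits gave 0.28 for H2-Ab1. Over all cells H2-Aa was at -6.19 by the mean over cells, -6.23 thinned and -6.57 in cells of 8% or more. Ciita in mature DC ran from -0.16 to 0.18 and in cDC1 from -0.26 to 0.087, Cd74 in pDC from -0.46 to 0.30 and in cDC1 from -0.080 to 0.12, H2-Ab1 in pDC from -0.12 to 0.56 and Ciita in pDC from -0.77 to 0.070, so these directions depend on the processing. Without the 1% of cells with the most H2-Aa UMIs the residue was 61.2 CPM over all cit cells and 73.1 CPM in cit cDC2. At 1000 and 3000 UMIs a cell, 94.4% and 99.7% of WT and 7.45% and 20.5% of cit cDC2 held an H2-Aa UMI. Of 3806 genes in cDC2, 83 were higher and 81 lower past the fold, and these counts were 197 and 248 at a minimum of 10 CPM and 24 and 17 at 2-fold. The cause of each of these shifts was not tested. The pDC gate rests on 87 and 97 cells and the NK cells on 28 and 21, which limits the intervals of both.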
